A study of Mus musculus with 4 samples.

Results

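The genes described here are 10 components of interferon and cytokine signalling: the receptor chains Ifnar1, Ifnar2, Ifngr1, Ifngr2, Il10rb and Il6st, the Janus kinases Jak1, Jak2 and Tyk2, and the transcription factor Stat3. They were matched by gene name, and all 10 were found in both deposited tables among 14100 genes that the tables share; all 10 passed the filter on low counts, as 13365 genes did. RNA of endothelial cells from the brains of C57BL/6 mice at embryonic day 18 was sequenced in 4 libraries. Libraries 1 and 2 carry the genotype label STINGECKO, an endothelial knockout of the innate immune adaptor STING, and libraries 3 and 5 are wild type (WT). The labels do not state the Cre driver, the deleted exons or the number of animals behind a library, so each p-value reflects the spread of these libraries alone, which may be technical.

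Cytokine receptors of this class have no kinase of their own. They work as pairs of chains, each holding a Janus kinase, and binding of the cytokine lets the kinases phosphorylate the receptor and the STAT proteins that then enter the nucleus. Type I interferon, the cytokine made downstream of STING, is bound by Ifnar1, which holds Tyk2, and Ifnar2, which holds Jak1. Interferon gamma uses Ifngr1 with Jak1 and Ifngr2 with Jak2. Il10rb is a shared second chain for interleukin-10, interleukin-22 and interferon lambda. Il6st is the shared signalling chain of the interleukin-6 family and acts mainly through Stat3.

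The libraries held 18610298 to 22169261 listed reads, and the 10 genes had 185 to 9314 reads in each. Tmem173, which encodes STING, was at 3.65 and 8.32 CPM (read counts scaled to library size, with TMM factors) in STINGECKO 1 and 2 and at 4.48 and 6.27 CPM in WT 3 and 5, so its whole-gene count did not separate the labels. The library labelled STINGECKO 2 had 13.2% of shared genes at 0 reads, against 2.39% to 5.25% in the others. STINGECKO 1 had 3623 reads of the Y-linked Ddx3y and 0 of Xist, while the other libraries had 876 to 3374 reads of Xist, so sex also differed within the STINGECKO pair. Of the labelled cell type, 12 of 12 endothelial markers had reads in every library and summed to 28015 to 29297 CPM. Pericyte and smooth muscle markers (10; Acta2 at 0 in both STINGECKO libraries, Tagln at 0 in STINGECKO 1, Myh11 at 0 in WT 3, and Tagln and Myh11 not listed in the table of STINGECKO 2 and WT 5) summed to 9954 and 10276 CPM in STINGECKO and 8066 and 7444 in WT, and microglia and macrophage markers to 555, 441, 561 and 1384 CPM in STINGECKO 1, STINGECKO 2, WT 3 and WT 5. Most of the pericyte sum was Rgs5, at 6845, 7221, 5588 and 4874 CPM in STINGECKO 1, STINGECKO 2, WT 3 and WT 5. Kcnj8, Anpep and Vtn were likewise higher in both STINGECKO libraries, and Pdgfrb and Abcc9 overlapped between genotypes. Cspg4 was lower in STINGECKO, at 83.8 and 152 against 154 and 181 CPM. In such bulk samples fewer cells of a type and less RNA per cell cannot be told apart.

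No member passed the genotype test. By quasi-likelihood in edgeR, adjusted by Benjamini-Hochberg over 13365 genes, the comparison called 0 of 10 members and 0 genes in all (0%), and every member had an adjusted p of 1.00. Without adjustment 0 members and 642 genes had a p under 0.05. By direction, 8 of 10 members had a log2 fold change below 0 (STINGECKO over WT), beside 51.8% of all genes tested, and their median was -0.16, beside -0.03 for all genes. Both STINGECKO libraries were above both WT libraries for 1 of 10 members (Jak1), where 15.4% of all genes were, and below both for 2 of 10 (Ifnar2 and Tyk2), where 19.0% were. These shares are near the background.

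**Figure D1:**
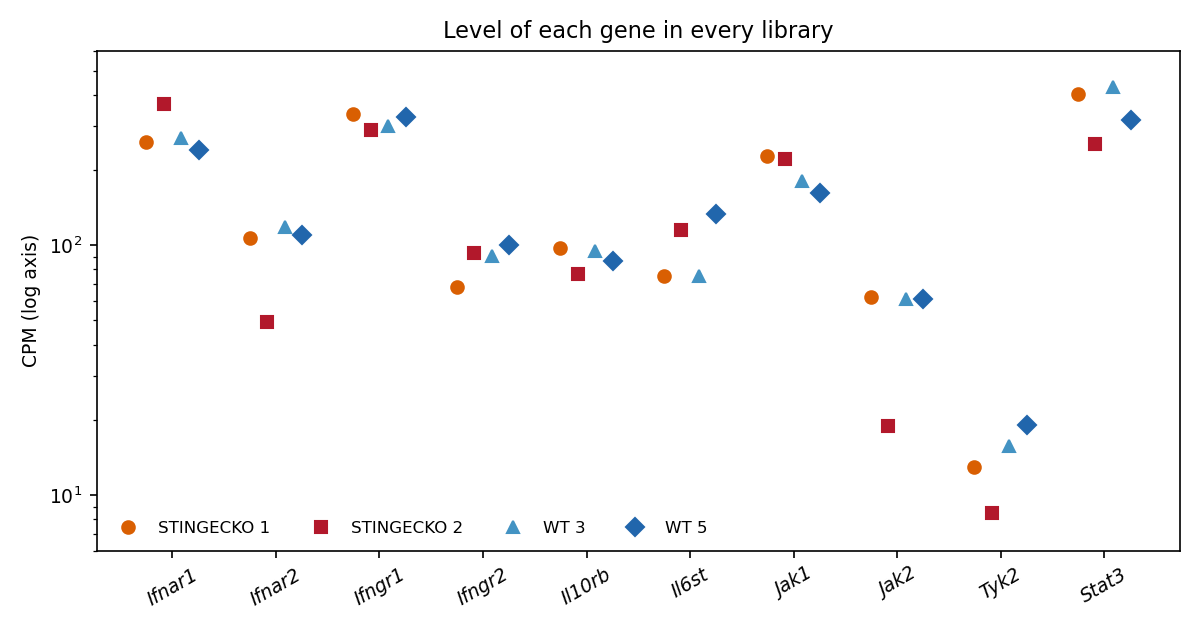
CPM (log axis) of the 10 genes in STINGECKO 1, STINGECKO 2, WT 3 and WT 5, one point per library. STINGECKO 2 lies far below the other libraries for Ifnar2 (49.1 CPM) and Jak2 (18.8 CPM) and above them for Ifnar1 (366 CPM), while Ifngr1 stays between 289 and 336 CPM.

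The 2 chains of the type I interferon receptor differed most in 1 library, and in opposite directions. Ifnar1 (ENSMUSG00000022967) was at 259 CPM in STINGECKO 1, 366 in STINGECKO 2, 267 in WT 3 and 241 in WT 5. STINGECKO 2 was thus highest, and STINGECKO 1 lay between the WT libraries. Its genotype means were 313 ± 76.1 and 254 ± 18.8 CPM (SD, n = 2 each), and the log2 fold change was 0.30 (SE 0.25, 95% interval -0.34 to 0.94, edgeR quasi-likelihood adjusted p = 1.00). Without STINGECKO 2 it was 0.03.

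Ifnar2 (ENSMUSG00000022971), the chain that holds Jak1, was at 107, 49.1, 118 and 110 CPM in STINGECKO 1, STINGECKO 2, WT 3 and WT 5. The genotypes did not overlap, but STINGECKO 1 was near WT 5 and most of the distance came from STINGECKO 2. Means were 78.1 ± 41.1 and 114 ± 5.53 CPM (SD, n = 2 each), and the log2 fold change was -0.55 (SE 0.44, 95% interval -1.68 to 0.58). Without STINGECKO 2 the value was -0.08, and without STINGECKO 1 it was -1.22.

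Because both chains were counted in the same library, their share does not depend on library scaling. Ifnar2 made up 29.3% of the reads of the pair in STINGECKO 1 (95% exact binomial interval 28.2 to 30.4), 30.6% in WT 3 (29.6 to 31.6) and 31.4% in WT 5 (30.3 to 32.5). In STINGECKO 2 it made up 11.8% (11.2 to 12.5), from 1074 Ifnar2 and 8016 Ifnar1 reads. The intervals cover counting error only, so they tell the libraries apart and not the genotypes.

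Ifnar2, Il10rb, Ifnar1 and Ifngr2 lie in that order on the plus strand of chromosome 16 within 192387 bases (GRCm38, 91372783 to 91565169 by the tables' positions), with 574, 59403 and 39630 bases between neighbours. Neighbours did not share a pattern. In STINGECKO 2 minus WT 5 the log2 CPM differences were -1.17 for Ifnar2, -0.17 for Il10rb, 0.60 for Ifnar1 and -0.11 for Ifngr2. In STINGECKO 1 minus WT 3 they were -0.14, 0.05, -0.05 and -0.41. An annotated gene on the same strand, Gm21970, shares 9.46% of the exon bases of Ifnar2 and 14.9% of those of Il10rb, so counts of both depend on how shared reads were treated.

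The bases before the start of these genes are shown because Ifnar1 and Ifnar2 diverged in STINGECKO 2 and Jak2, described below, was low there as well. Each run is the 250 bases upstream of the RefSeq start (GRCm38.p6), 5′ to 3′ on the plus strand, which is the strand of all 3 genes. Capitals mark the letters TTCNNNGAA (a STAT-type GAS element) and GGGCGG (a GC box), searched on both strands; no GAS match overlapped a GC box in these runs.
Ifnar1, chr16:91484965-91485214: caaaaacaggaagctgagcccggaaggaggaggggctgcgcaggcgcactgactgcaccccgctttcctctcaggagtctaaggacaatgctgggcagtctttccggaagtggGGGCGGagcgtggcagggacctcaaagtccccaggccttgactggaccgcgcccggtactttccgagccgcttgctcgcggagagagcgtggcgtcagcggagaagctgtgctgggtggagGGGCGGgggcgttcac
Ifnar2, chr16:91372533-91372782: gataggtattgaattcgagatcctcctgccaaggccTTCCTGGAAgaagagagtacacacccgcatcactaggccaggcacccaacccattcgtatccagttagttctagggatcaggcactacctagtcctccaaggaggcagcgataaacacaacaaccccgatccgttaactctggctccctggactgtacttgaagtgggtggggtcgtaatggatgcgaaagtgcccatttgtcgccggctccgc
Jak2, chr19:29251553-29251802: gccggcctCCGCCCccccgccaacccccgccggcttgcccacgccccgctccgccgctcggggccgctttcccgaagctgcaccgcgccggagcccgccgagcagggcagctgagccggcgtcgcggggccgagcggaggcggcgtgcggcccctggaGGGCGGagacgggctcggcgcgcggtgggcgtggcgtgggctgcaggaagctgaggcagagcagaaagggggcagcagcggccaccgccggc

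The stretches differ in composition. G and C made up 65.6% of the Ifnar1 run, 54.0% of the Ifnar2 run and 80.8% of the Jak2 run, where the median over 27025 genes was 52.0%. A GAS match was present in 1 of the 9 members with a RefSeq window (Ifnar2) and in 7.18% of all windows, and a GC box in 8 of 9, all but Ifnar2, and in 32.9% of all windows. The letters CCAAT, likewise on both strands, were present in 6 of 9 and in 34.5% of all windows. The 27025 windows were not limited to the 13365 genes tested. The shares thus do not set the members beside genes expressed at a like level. A match describes the letters and is not a measured binding site.

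For the interferon gamma receptor the lowest Ifngr2 value was in STINGECKO 1, and Ifngr1 was nearly level. Ifngr1 (ENSMUSG00000020009; chromosome 10, 19591949 to 19610229, plus strand, GRCm38), its ligand-binding chain, was at 336, 289, 300 and 326 CPM in STINGECKO 1, STINGECKO 2, WT 3 and WT 5. It varied least of the 10 genes, with a range of 0.22 on the log2 scale, and both WT values lay between the STINGECKO values. Its log2 fold change was -0.0034 (SE 0.20, 95% interval -0.52 to 0.51).

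Ifngr2 (ENSMUSG00000022965), the chain that holds Jak2, was at 67.9, 92.8, 90.5 and 99.9 CPM in the same order. STINGECKO 1 alone was low, and the genotypes overlapped, with means of 80.3 ± 17.6 and 95.2 ± 6.62 CPM (SD, n = 2 each) and a log2 fold change of -0.24 (SE 0.33). The value was -0.036 without STINGECKO 1 and -0.48 without STINGECKO 2. Within libraries, Ifngr2 made up 16.8% of the reads of Ifngr1 and Ifngr2 in STINGECKO 1 and 23.2% to 24.3% in the other libraries. The library that differed most was thus STINGECKO 2 for the type I pair and STINGECKO 1 for this pair. The Ifngr2 differences were modest: -0.45, -0.41 and -0.56 in log2 CPM for STINGECKO 1 minus STINGECKO 2, WT 3 and WT 5. In the same pairs of libraries the median absolute difference over all genes was 0.85, 0.59 and 0.55.

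Il10rb (ENSMUSG00000022969) was at 97.5, 76.6, 94.5 and 86.2 CPM in STINGECKO 1, STINGECKO 2, WT 3 and WT 5. Both WT libraries lay between the STINGECKO libraries, and the log2 fold change was -0.05 (SE 0.31, 95% interval -0.84 to 0.74). Il10rb begins 574 bases past the end of Ifnar2, yet it stayed within 0.35 on the log2 scale over the 4 libraries, where Ifnar2 spanned 1.26.

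**Figure D2:**
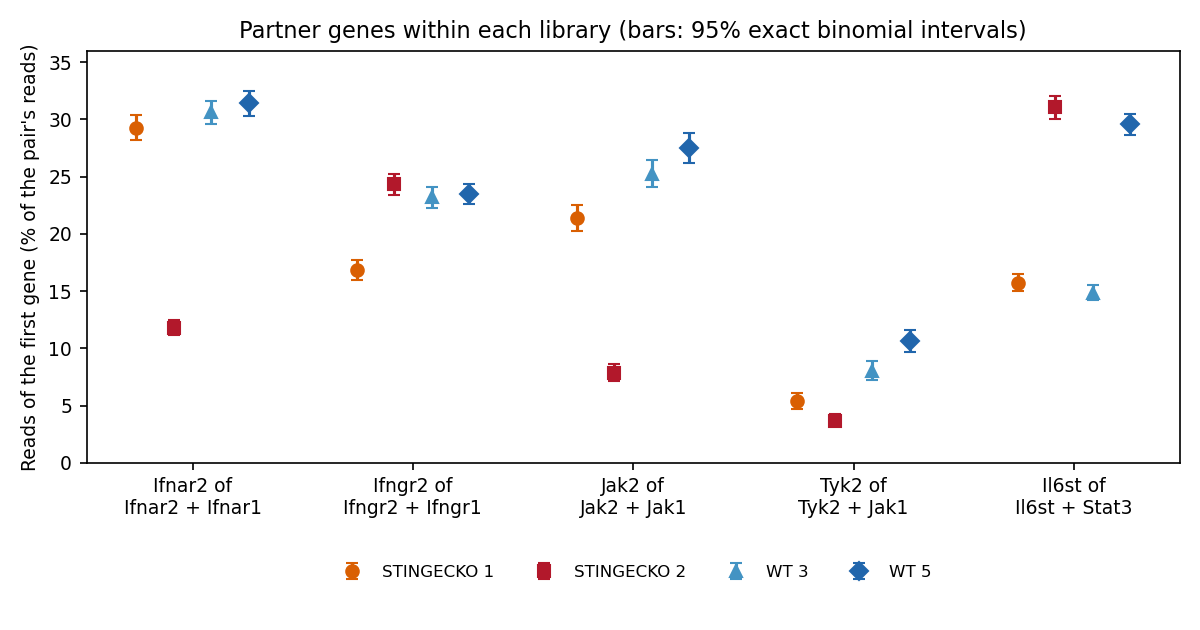
Reads of the first gene as a percentage of the reads of both genes of a pair, for each library, with 95% exact binomial intervals that cover counting error only. STINGECKO 2 is low for Ifnar2 (11.8%) and Jak2 (7.87%), STINGECKO 1 is low for Ifngr2 (16.8%), and Il6st beside Stat3 is near 15% in STINGECKO 1 and WT 3 and near 30% in STINGECKO 2 and WT 5.

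Among the kinases, Jak1 was the one member higher in both STINGECKO libraries. Jak1 (ENSMUSG00000028530; chromosome 4, 101152367 to 101265282, minus strand), used by both interferon receptors and by Il6st, was at 227 and 220 CPM in STINGECKO 1 and 2 and at 181 and 161 CPM in WT 3 and 5. The STINGECKO libraries were close to each other and above both WT libraries. Means were 224 ± 4.89 and 171 ± 13.7 CPM (SD, n = 2 each), and the log2 fold change was 0.39 (SE 0.22, 95% interval -0.17 to 0.94; unadjusted p = 0.132, adjusted p = 1.00 by the edgeR quasi-likelihood test). It had the smallest unadjusted p of the members, and leaving out each library in turn gave 0.32 to 0.48.

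Jak2 (ENSMUSG00000024789; chromosome 19, 29251828 to 29313080, plus strand), the kinase of Ifngr2 and of the erythropoietin receptor, was at 61.8 CPM in STINGECKO 1, 18.8 in STINGECKO 2, 61.0 in WT 3 and 61.2 in WT 5. The other libraries were within 1 CPM of each other, and STINGECKO 2 alone was low, from 412 reads against 1135 to 1319. Means were 40.3 ± 30.4 and 61.1 ± 0.157 CPM (SD, n = 2 each), and the log2 fold change was -0.60 (SE 0.65, 95% interval -2.26 to 1.06). The value was 0.02 without STINGECKO 2 and -1.70 without STINGECKO 1. Jak2 made up 7.87% of the reads of Jak1 and Jak2 in STINGECKO 2 (95% exact binomial interval 7.16 to 8.63), against 21.4%, 25.2% and 27.5% in STINGECKO 1, WT 3 and WT 5.

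Tyk2 (ENSMUSG00000032175; chromosome 9, 21104068 to 21131243, minus strand), the kinase of Ifnar1 and Il10rb, was the least abundant member at 12.9, 8.45, 15.7 and 19.1 CPM, from 237, 185, 340 and 397 reads. Both STINGECKO libraries were below both WT libraries, and the counting intervals of STINGECKO 1 (95% exact Poisson, 11.3 to 14.7 CPM) and WT 3 (14.1 to 17.5 CPM) overlapped. Means were 10.7 ± 3.15 and 17.4 ± 2.42 CPM (SD, n = 2 each), and the log2 fold change was -0.71 (SE 0.85, 95% interval -2.86 to 1.45), and leaving out each library in turn gave -1.04 to -0.43. An antisense gene, 1700084C06Rik, covers 8.07% of the exon bases of Tyk2, and the labels do not state whether counting used the strand.

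STINGECKO 2 stood apart from all 3 other libraries by over 2-fold downward for 2 of the 10 members, Ifnar2 and Jak2. This measure was chosen after the values were seen. The same was true of 19.0% of all 13365 genes and of 12.2% of the 7479 genes whose mean CPM lay between those of the lowest and highest member. In the 3 other libraries the share of all genes was 3.69% to 5.13%, with 0 members. In STINGECKO 2 astrocyte and neuron markers had their lowest sums: 4 of 9 astrocyte markers were at 0 (Aqp4, Aldh1l1, Slc1a2 and Acsbg1; 0 or 1 in the others) and Gfap was not listed in its table, with a sum of 215 CPM against 320 in STINGECKO 1 and 388 and 341 in WT, and 2 of 8 neuron markers were at 0 (Syn1 and Gap43; Syn1 and Snap25 in STINGECKO 1), with a sum of 42.2 CPM against 63.8, 135 and 87.6. Neuron markers went both ways: Tubb3, Stmn2 and Map2 were lowest in STINGECKO 2 as well, and Rbfox3 was highest there. Rbfox3 was at 6.43, 14.5, 1.20 and 8.92 CPM in STINGECKO 1, STINGECKO 2, WT 3 and WT 5. In that order Dcx was at 8.61, 13.3, 26.4 and 16.5 CPM and Snap25 at 0, 1.55, 17.6 and 0.337 CPM. Gja1 made up most of the astrocyte sum, at 263, 210, 277 and 249 CPM in STINGECKO 1, STINGECKO 2, WT 3 and WT 5. In that order Slc1a3 was at 13.1, 0.594, 50.8 and 33.9 CPM and Aldoc at 15.31, 4.799, 11.88 and 16.05 CPM. The astrocyte sum thus understates how far Slc1a3, Aldoc and the markers at 0 were lower in STINGECKO 2. The sum of oligodendrocyte lineage markers (6 of 7 listed) was 101 CPM in STINGECKO 1, 154 in STINGECKO 2 and 180 and 193 in WT. In each library 1 or 2 of them were at 0, and Mbp was not listed for STINGECKO 2 and WT 5. Most of the sum was Cspg4, also a pericyte marker here, at 83.8, 152, 154 and 181 CPM in STINGECKO 1, STINGECKO 2, WT 3 and WT 5. In the same order Olig1 was at 9.64, 0, 14.1 and 6.94 CPM and Olig2 at 0, 1.37, 1.89 and 0. The sum thus does not rank the libraries for this lineage. The part of these cell types in the levels of Ifnar2 and Jak2 was not tested.

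**Figure D3:**
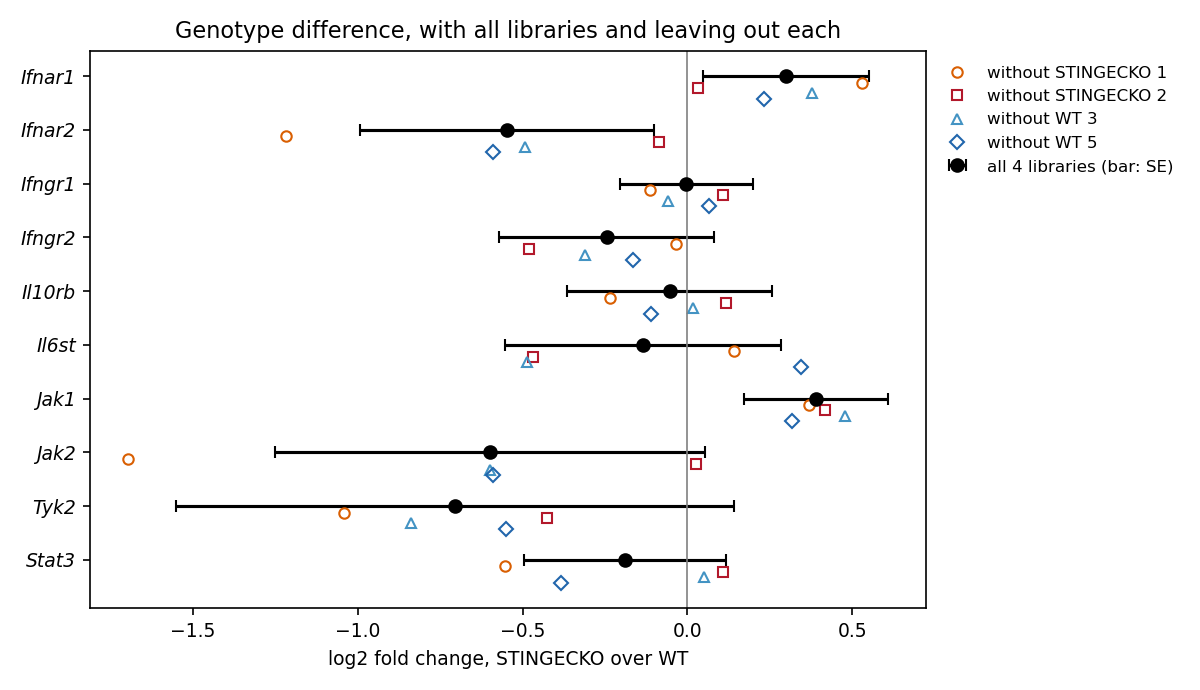
Log2 fold change of STINGECKO over WT (horizontal axis) for each gene with all 4 libraries (black, bar is the SE) and with each library left out (open symbols, drawn just below). Jak1 stays between 0.32 and 0.48, while Ifnar2 and Jak2 move to -0.08 and 0.02 without STINGECKO 2.

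Il6st and Stat3, receptor chain and target of one pathway, were among 4 of 10 members that split the libraries by deposited table, an order looked for after the values were seen. Stat3 and Il10rb were higher in both libraries of the first table, as 16.4% of all genes were, and Il6st and Ifngr2 lower, as 14.6% were. Il6st (ENSMUSG00000021756; chromosome 13, 112464070 to 112510086, plus strand) was at 75.0 CPM in STINGECKO 1, 115 in STINGECKO 2, 75.1 in WT 3 and 133 in WT 5. The libraries of the first table, STINGECKO 1 and WT 3, were nearly equal, and both libraries of the second table, STINGECKO 2 and WT 5, were higher. Genotype means were 94.9 ± 28.1 and 104 ± 41.2 CPM (SD, n = 2 each), and the log2 fold change was -0.14 (SE 0.42, 95% interval -1.20 to 0.93).

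Stat3 (ENSMUSG00000004040; chromosome 11, 100885098 to 100939540, minus strand), which carries the signal of Il6st to the nucleus, was at 402, 255, 430 and 318 CPM in STINGECKO 1, STINGECKO 2, WT 3 and WT 5. Here both libraries of the first table were above both of the second. Genotype means were 328 ± 104 and 374 ± 79.7 CPM (SD, n = 2 each), and the log2 fold change was -0.19 (SE 0.31, 95% interval -0.97 to 0.59). Within the tables the differences were -0.10 in the first and -0.32 in the second on the log2 scale (STINGECKO minus WT).

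Set side by side, Il6st made up 15.7% and 14.9% of the reads of Il6st and Stat3 in STINGECKO 1 and WT 3, and 31.1% and 29.6% in STINGECKO 2 and WT 5. The intervals of the first pair (15.0 to 16.5 and 14.2 to 15.5) and of the second (30.1 to 32.1 and 28.6 to 30.5) overlapped within each table and were far apart between tables. The labels name the table of each library but no batch or date, so a batch and the table cannot be told apart. With the table as a block, the log2 fold changes were -0.11 for Il6st and -0.21 for Stat3.

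Per kilobase of exon (GENCODE M21), Ifngr1 was the most abundant member with 110 ± 7.71 CPM per kilobase (SD over 4 libraries), above every other gene in all 4. Ifnar1 (47.7 ± 9.50) and Stat3 (36.9 ± 8.40) came next with overlapping ranges, followed by Ifnar2 (28.9 ± 9.52), Jak1 (27.3 ± 4.39), Ifngr2 (23.3 ± 3.67) and Il10rb (23.3 ± 2.45), each overlapping its neighbour in this order. Ranges of Il10rb and Jak2 (10.1 ± 4.22) did not overlap, those of Jak2 and Il6st (8.97 ± 2.64) did, and Tyk2 was lowest at 2.05 ± 0.658 CPM per kilobase, below all others in every library. By overlap of ranges the order thus had breaks after Ifngr1, after Il10rb and before Tyk2 only. Stat3 was also above Ifnar2 within each of the 4 libraries, though their ranges overlapped.

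Over the 10 members the median absolute log2 difference was 0.55 between STINGECKO 1 and 2 and 0.15 between WT 3 and 5, and 0.12, 0.26, 0.53 and 0.38 for STINGECKO 1 against WT 3, STINGECKO 1 against WT 5, STINGECKO 2 against WT 3 and STINGECKO 2 against WT 5. The corresponding medians over all 13365 genes were 0.85, 0.58, 0.59, 0.55, 0.87 and 0.91, so the members had smaller differences than the median gene in each of the 6 pairs. Only 7479 of the 13365 genes had a mean CPM within the range of the members. No median was made over genes at the members' level, so the part of count level in this was not tested.

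In the first of the authors' deposited tables, STINGECKO 1 beside WT 3, 0 of the 10 members were marked as changed, where 40.9% of its genes were. The second of the authors' deposited tables, STINGECKO 2 beside WT 5, marked 3, Ifnar2, Jak2 and Tyk2, all lower, with log2 fold changes of -1.20, -1.73 and -1.21, and marked 52.1% of its genes. The mark did not follow the authors' adjusted p alone. Jak1 in the first comparison (log2 fold change 0.30) and Ifnar1 in the second (0.58) were unmarked with values under 0.05. Each of these comparisons sets 1 library against 1 library.

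Of the wider pathway, 0 of 58 tested genes passed the edgeR quasi-likelihood test in either direction, with 25 above 0 and 33 below; Il4ra and Socs3 each stand in 2 of the lists that follow. Among 22 cytokine ligands none was listed in both tables, so none was tested. Of 35 other receptor chains, 21 were tested, 7 above 0 and 14 below, with a median log2 fold change of -0.12. The most abundant were Il11ra1, the interleukin-11 receptor (129, 134, 84.2 and 136 CPM in STINGECKO 1, STINGECKO 2, WT 3 and WT 5), and Osmr, the oncostatin M receptor and a partner of Il6st (130, 108, 143 and 185 CPM). Osmr had a log2 fold change of -0.46 (SE 0.27). Lifr, the other large partner of Il6st, was at 111, 45.7, 49.2 and 121 CPM, high in STINGECKO 1 and WT 5. Il2rg, the common gamma chain, was at 68.4, 87.7, 97.1 and 57.1 CPM, and Il4ra, the interleukin-4 receptor, at 67.7, 71.6, 40.4 and 98.9 CPM.

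The other Jak and Stat genes, 7 tested, had 5 above 0 and 2 below (median 0.10). In 0 of them were both STINGECKO libraries above, or both below, both WT libraries. Of all genes 15.4% were above and 19.0% below in this way. Of the 21 other receptors tested, 2 were above and 3 below. The counts were 4 and 4 for the 20 regulators, and 1 and 3 for the 12 Stat3 targets tested. Stat2, which joins Irf9 in the complex that type I interferon activates, was at 84.7, 26.4, 19.4 and 78.2 CPM in STINGECKO 1, STINGECKO 2, WT 3 and WT 5. Irf9, its DNA-binding partner, was at 244, 125, 113 and 207 CPM, and Stat6, used by Il4ra, at 154, 93.6, 68.9 and 131 CPM. For these 3 genes STINGECKO 1 and WT 5 were the higher libraries, as they were for 20.1% of all genes and for 2 of 10 members (Ifngr1 and Jak2), and erythroid markers moved the other way: the 6 markers summed to 1228 and 1314 CPM in those libraries and to 2852 and 2514 CPM in STINGECKO 2 and WT 3, none at 0. Their part in this was not tested. Jak3, the kinase of Il2rg, was highest in WT 3 (192 CPM) and at 104, 90.4 and 89.5 CPM in STINGECKO 1, STINGECKO 2 and WT 5.

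**Figure D4:**
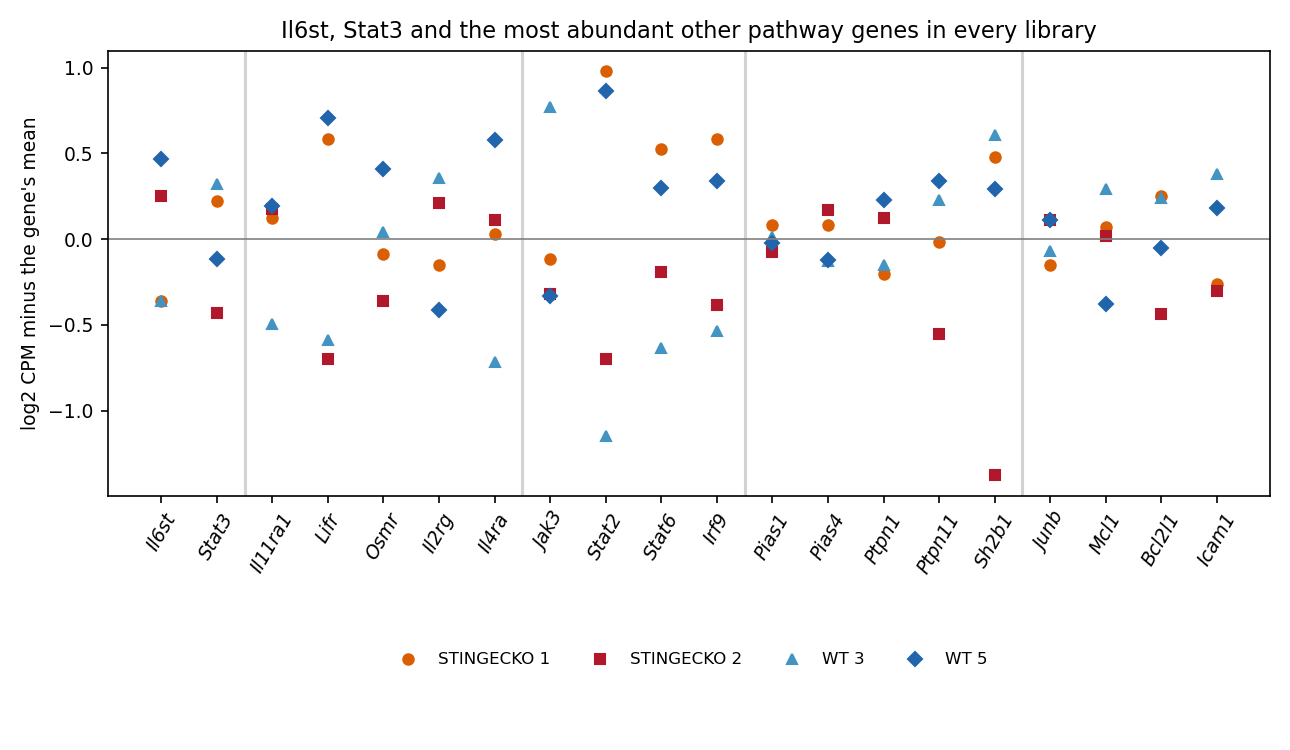
Log2 CPM of each gene minus its mean over the 4 libraries, for Il6st and Stat3 and for the most abundant other receptors, Jak and Stat genes, regulators and Stat3 targets (groups split by vertical lines). STINGECKO 1 and WT 5 are high for Stat2, Stat6, Irf9 and Lifr, while Il6st and Stat3 split by deposited table.

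All 20 genes of a list of regulators, most of them negative, were tested, with 9 above 0 and 11 below and a median of -0.05. Pias1, an inhibitor of activated STAT, was nearly level at 113, 102, 108 and 105 CPM, and Pias4, a relative, was at 108, 115, 93.3 and 93.7 CPM. The tyrosine phosphatase Ptpn1 was at 97.9, 123, 101 and 132 CPM and Ptpn11 at 122, 84.5, 145 and 156 CPM, both STINGECKO values of Ptpn11 being below WT (log2 fold change -0.54, SE 0.30). Sh2b1, an adaptor that binds Jak2, was at 68.8, 19.0, 75.2 and 60.4 CPM, low in STINGECKO 2 as Jak2 was.

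Of 15 Stat3 target genes, 12 were tested, 4 above 0 and 8 below (median -0.02). Junb, an AP-1 factor, was at 351, 422, 373 and 422 CPM in STINGECKO 1, STINGECKO 2, WT 3 and WT 5. The survival genes Bcl2l1 (294, 183, 292 and 239 CPM) and Mcl1 (99.3, 95.7, 116 and 72.8 CPM) overlapped between genotypes. Icam1, a leukocyte adhesion molecule, was at 101 and 98.5 CPM in STINGECKO and 158 and 138 in WT, a log2 fold change of -0.57 (SE 0.25, adjusted p = 1.00 by the edgeR quasi-likelihood test). Cebpd, a transcription factor named after its values were seen, was the only pathway gene with an unadjusted p under 0.05, at 21.3 and 28.9 CPM in STINGECKO and 4.25 and 3.81 in WT (log2 fold change 2.64, SE 0.87, adjusted p = 0.977).

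The genes whose profile over the 4 libraries was most like the mean of the members were Sort1, Ube2e3 and Adprh, by Euclidean distance of centred log2 CPM among 10288 genes at a mean of at least 5 CPM (distances 0.02 to 0.04). Sort1, a sorting receptor, was at 47.2, 38.3, 49.5 and 51.0 CPM in STINGECKO 1, STINGECKO 2, WT 3 and WT 5. The profile of Jak2, the member with the widest range (1.71 on the log2 scale), was nearest to those of Zfp869, Trmt11 and Cbx6 (distances 0.12 to 0.13). Cbx6, a Polycomb protein, was at 88.1, 27.3, 81.1 and 79.5 CPM, again low in STINGECKO 2 alone. With 4 libraries such likeness is a description only.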

How the data were processed

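RNA-seq of 4 libraries was analysed. Tools in the submitters' processing notes are HTSeq 0.6.0, TopHat2 2.0.12 and Bowtie2 2.2.3, with the build mm9; gene positions in the tables are those of GRCm38 for 89.7% of matched genes. Per the file headers, the deposited count columns hold reads per gene; the authors' normalized columns are CPM with 0 written as 0.5 read, the authors' fold change is the ratio of these, the authors' log2 column its log2, and the authors' p-value columns compare single libraries.

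Counts of the 2 tables were joined by gene identifier (14100 shared genes). The genotype test was the quasi-likelihood test of edgeR 4.0.16 in R 4.3.3, after TMM scaling and filterByExpr (minimum count 10), adjusted over 13365 genes (threshold 0.05) and tested on simulated data. DESeq2 1.42.0, the likelihood ratio test, limma-voom 3.58.1, other scalings and filters, a table block and leaving out each library were alternatives. Log2 CPM used a prior count of 2. The members and lists were chosen with earlier results of these data known. All members were named, with the 5 most abundant tested genes of each pathway list, any past the threshold, and the 3 genes nearest in profile; genes of the lists that are not reported here are left in the counts. Upstream bases came from RefSeq.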

Additional observations from a re-analysis of the deposited data

Results flagged for a closer look

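Il9r, a receptor chain that pairs with the common gamma chain, is listed only in the table of STINGECKO 1 and WT 3 and entered no comparison. It had 69 reads in STINGECKO 1 and 0 in WT 3, in 1 library against 1.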

How the results depend on the processing

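No member and no other pathway gene was called under any of the 13 alternatives. Over all genes DESeq2 called 87 and the edgeR likelihood ratio test 33, where the quasi-likelihood test called 0. The genotypes share no replicate number, so the labels give no pairs of libraries. The deposited table as a block pairs STINGECKO 1 with WT 3 and STINGECKO 2 with WT 5, and it called 0 genes. The median of the members was -0.19 to -0.15 in the 9 settings with all libraries and 0.03 without STINGECKO 2. Leaving out a library leaves its genotype with 1 sample, assumed to vary like the other genotype. The sign turned in some of these fits for 5 members: Jak2 ranged from -1.70 to 0.024, Stat3 from -0.55 to 0.11, Il6st from -0.49 to 0.35, Il10rb from -0.24 to 0.12 and Ifngr1 from -0.11 to 0.11. It turned for 14 named pathway genes: Il11ra1 (-0.043 to 0.65), Lifr (-0.89 to 0.67), Il2rg (-0.31 to 0.45), Il4ra (-0.50 to 0.79), Jak3 (-0.98 to 0.12), Stat2 (-0.88 to 1.52), Stat6 (-0.10 to 0.85), Irf9 (-0.35 to 0.72), Pias1 (-0.065 to 0.10), Ptpn1 (-0.26 to 0.13), Sh2b1 (-1.83 to 0.026), Junb (-0.17 to 0.089), Mcl1 (-0.24 to 0.42) and Bcl2l1 (-0.54 to 0.16).

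Ifngr1, at -0.0034, was at 0.0089 with DESeq2 and with RLE size factors, 0.0034 with genes of either table and 0.0019 with no filter. Il4ra turned to 0.013 with DESeq2 and with RLE size factors, 0.14 with the table block, 0.15 with limma-voom, 0.0051 with genes of either table and 0.0043 with no filter. With library totals alone Il2rg was at -0.014 and Pias1 at -0.017. The cause was not tested in any of these.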

Other observations

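Osm, the ligand of Osmr and the only cytokine ligand of 22 listed in a table, had 0 reads in STINGECKO 2 and 219 in WT 5, the library with the highest sum of microglia and macrophage markers (1384 CPM). The part of those cells in this value was not tested.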
